A study of Mus musculus with 10 samples.

Results

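Brown adipose tissue of C57BL/6J mice that proved prone to obesity on a high-fat diet (3 libraries) was compared, gene by gene, with that of mice kept on regular chow (4 libraries, the control). Both groups were wild type. The genes described are those of the deposited table that carry a numeric gene identifier and hence a name, 25017 of 32889 genes in all. The RefSeq annotation of GRCm38.p6 gave a position to 24350 of them and made 17622 protein-coding and 6343 long noncoding RNAs (lncRNAs). In the 7 libraries compared, 522 named genes had no count at all. The series also holds 3 libraries of mice that resisted obesity on the high-fat diet, which entered the same fit and are set beside the obesity-prone values near the end. Neither age, sex nor the length of the diet is given in the sources used here, nor is it stated whether each library is a separate animal, so p-values measure only the spread between these samples. The obesity-prone and control mice differ at the same time in diet and in how they were sorted, and the parts of the 2 cannot be told apart in this comparison.

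Brown adipocytes burn fatty acids and glucose to make heat. Noradrenaline from sympathetic nerves acts on beta-adrenergic receptors, cyclic AMP and protein kinase A then release fatty acids from lipid droplets, and uncoupling protein 1 lets protons flow back across the inner mitochondrial membrane without making ATP. The tissue also holds capillaries, nerve endings, progenitors and macrophages, and in mice that become obese it stores more fat in larger droplets and takes on features of white fat.

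Values are CPM, which are counts scaled to a common library size with TMM factors, listed in the order of the replicate numbers, and fold changes are log2 values of obesity-prone over control with their standard errors (SE) from edgeR's quasi-likelihood fit. Total counts lay between 35583997 and 37327770 per library. Markers of brown adipocytes were abundant in every library: Ucp1 read 6240.3, 8771, 9384 and 10271 CPM in control and 6815, 8461 and 2882 CPM in obesity-prone libraries. Of the genes that mark other cells, the milk gene Csn3, the keratins Krt8 and Krt18 and the mesothelial genes Msln and Upk3b were at or near 0. The 4 lymphocyte markers examined reached at most 1.15 CPM. A wider list of epithelial and mesothelial genes summed to 22.4, 31.1, 26.2 and 19.4 CPM in control and 4.15, 4.46 and 3.08 CPM in obesity-prone libraries. In control most of that sum was a single gene, Cldn1, at 12.05, 23.2, 15.8 and 15.4 CPM. Cldn1 read 1.88, 2.23 and 0.684 CPM in obesity-prone libraries. On the component with the largest share of variance (30.6%), the range of control replicates 1 to 3 was -55.6 to -34.9, control replicate 4 was at 11.1, and the obesity-prone libraries at 37.5, 19.7 and 74.6, so that control replicate 4 stood nearer to the obesity-prone group than to the other controls, and obesity-prone replicate 3 stood farthest out. Transcripts of muscle, red cells and macrophages also varied between libraries. Skeletal muscle genes summed to 134, 3369, 1595 and 136 CPM in control and 241, 133 and 299 CPM in obesity-prone libraries, and erythroid genes to 922, 1305, 1285 and 6261 against 4847, 2496 and 22398 CPM. Macrophage genes summed to 304, 370.0, 303 and 451 CPM in control and 569, 325 and 823 CPM in obesity-prone libraries. In a bulk sample, fewer cells of a type and less RNA per cell cannot be told apart, and the part of these differences in the results was not tested except where a value is given.

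**Figure D1:**
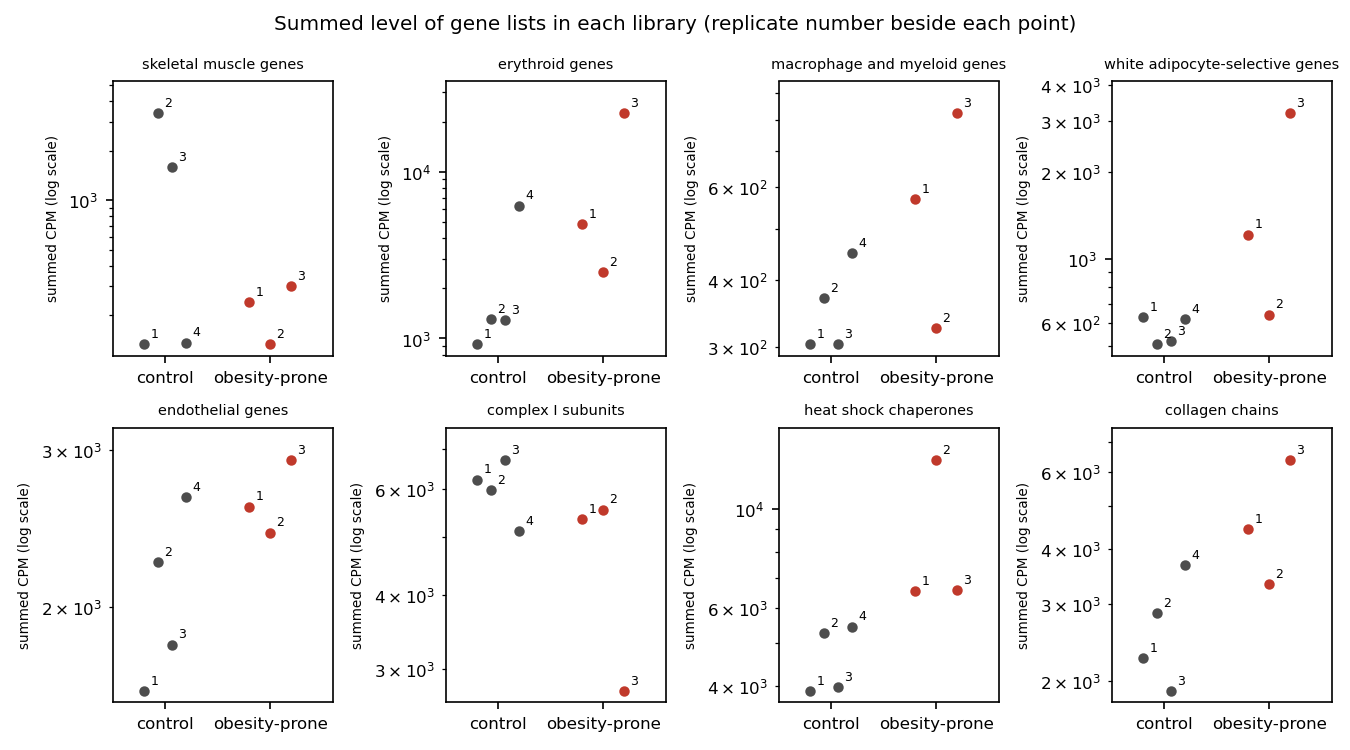
Summed CPM of 8 gene lists (vertical axes, log scale) in each control and obesity-prone library (points with their replicate number, by group on the horizontal axis). Obesity-prone replicate 3 was highest of the 7 libraries compared for erythroid, macrophage and white adipocyte-selective genes and lowest for complex I genes, and skeletal muscle genes were highest in control replicate 2.

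After a filter on low counts, 16920 named genes were tested. Of these, 1305 changed at an adjusted p below 0.05, which is 7.71%: 689 rose (4.07%) and 616 fell (3.64%). The groups did not overlap for 1250 of the 1305, against 3625 (21.4%) of all named genes tested. The median of the changed genes was 0.89 for those that rose and -0.75 for those that fell, and 294 rose and 199 fell by 2-fold or more. The median over all named genes tested was 0.005, with 50.6% above 0. Protein-coding genes changed in 8.23% of cases (626 rose and 546 fell of 14243) and lncRNAs in 5.35% (58 rose and 60 fell of 2207). Limma on log2 FPKM with a pseudocount of 1 gave 574 that rose and 329 that fell. The number of changes depended on single libraries. With 1 left out, it was 76 without control replicate 3 and 2879 without control replicate 4. It was 251 and 243 on leaving out control replicate 1 or 2. For obesity-prone replicate 1, 2 or 3 the count became 476, 2087 or 506, and for obesity-resistant replicate 1, 2 or 3 it became 718, 552 or 671. The shares of the gene lists below are to be read against the 7.71% of all genes. They were near or below it for thermogenic effectors (5.56%), complex I subunits (2.703%) and fatty acid oxidation genes (6.67%), and above it for heat shock chaperones (55.9%), collagen folding genes (50%), white adipocyte-selective genes (31.2%), branched-chain amino acid breakdown (28.6%) and de novo lipogenesis (25%). No gene that changed turned its direction in any fit that left out 1 library.

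**Figure D2:**
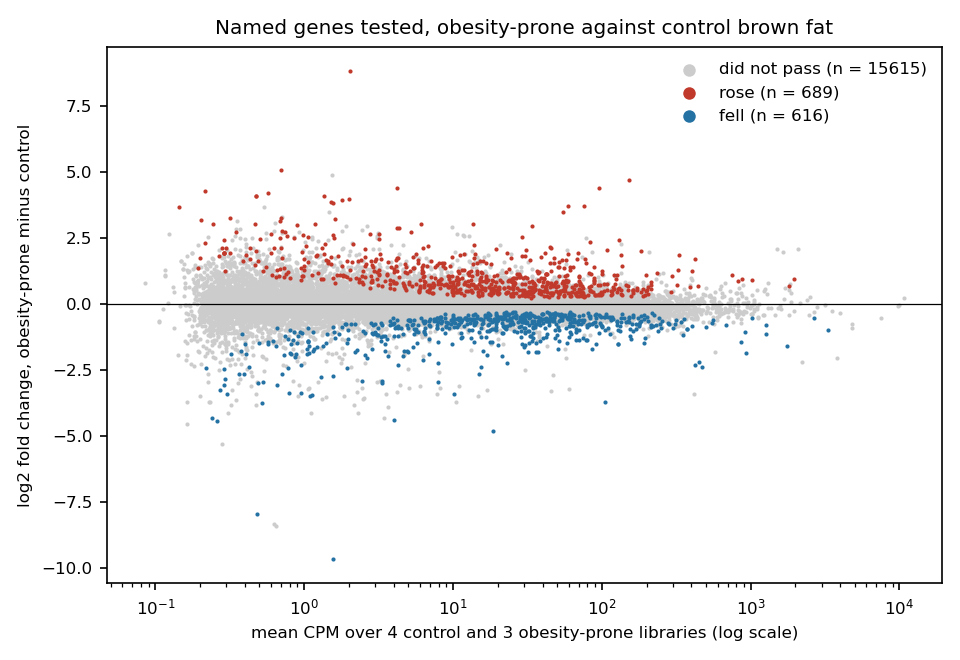
Log2 fold change of obesity-prone over control (vertical axis) against mean CPM over the 7 libraries (horizontal axis, log scale) for the 16920 named genes tested, with those that rose and fell in colour. The 689 genes that rose and the 616 that fell are spread over the whole range of expression.

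A set of 75 genes passed in edgeR, in DESeq2 and in each of the 10 fits that left out 1 library, and 47 of them rose and 28 fell. Their groups did not overlap for any of the 75, their adjusted p lay between 5.5e-05 and 0.017, and 69 were protein-coding and 6 lncRNAs. All 75 passed as well with a skeletal muscle score in the model, where 544 of the 1305 did. They also passed without obesity-prone replicate 3 and control replicate 4 together. That fit called 2497 named genes and kept 1107 of the 1305. The 75 had been chosen by fits without each of these libraries, so passing there adds little. Fitted on the 2 groups alone, 50 of the 75 passed. Genes outside the 75 that are said below to have risen or fallen lost the call in at least 1 of these fits, for most of them the fit without control replicate 3. The lowest adjusted p belonged to Lamb3, a chain of a laminin of the basement membrane (identifier 16780, chromosome 1, 193294353 to 193343878). It read 4.14, 4.78, 5.05 and 4.95 CPM in control and 15.8, 17.2 and 16.8 CPM in obesity-prone libraries, a log2 fold change of 1.81 ± 0.10 (adjusted p = 5.5e-05). Every obesity-prone library lay above every control library, and the fold change stayed between 1.75 and 1.84 whichever library was left out. Among the genes that fell, Cyp1a1, a cytochrome P450 that oxidises aromatic foreign compounds, read 28.8, 38.1, 37.6 and 21.1 CPM in control against 0.903, 2.04 and 0.5001 CPM in obesity-prone libraries.

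**Figure D3:**
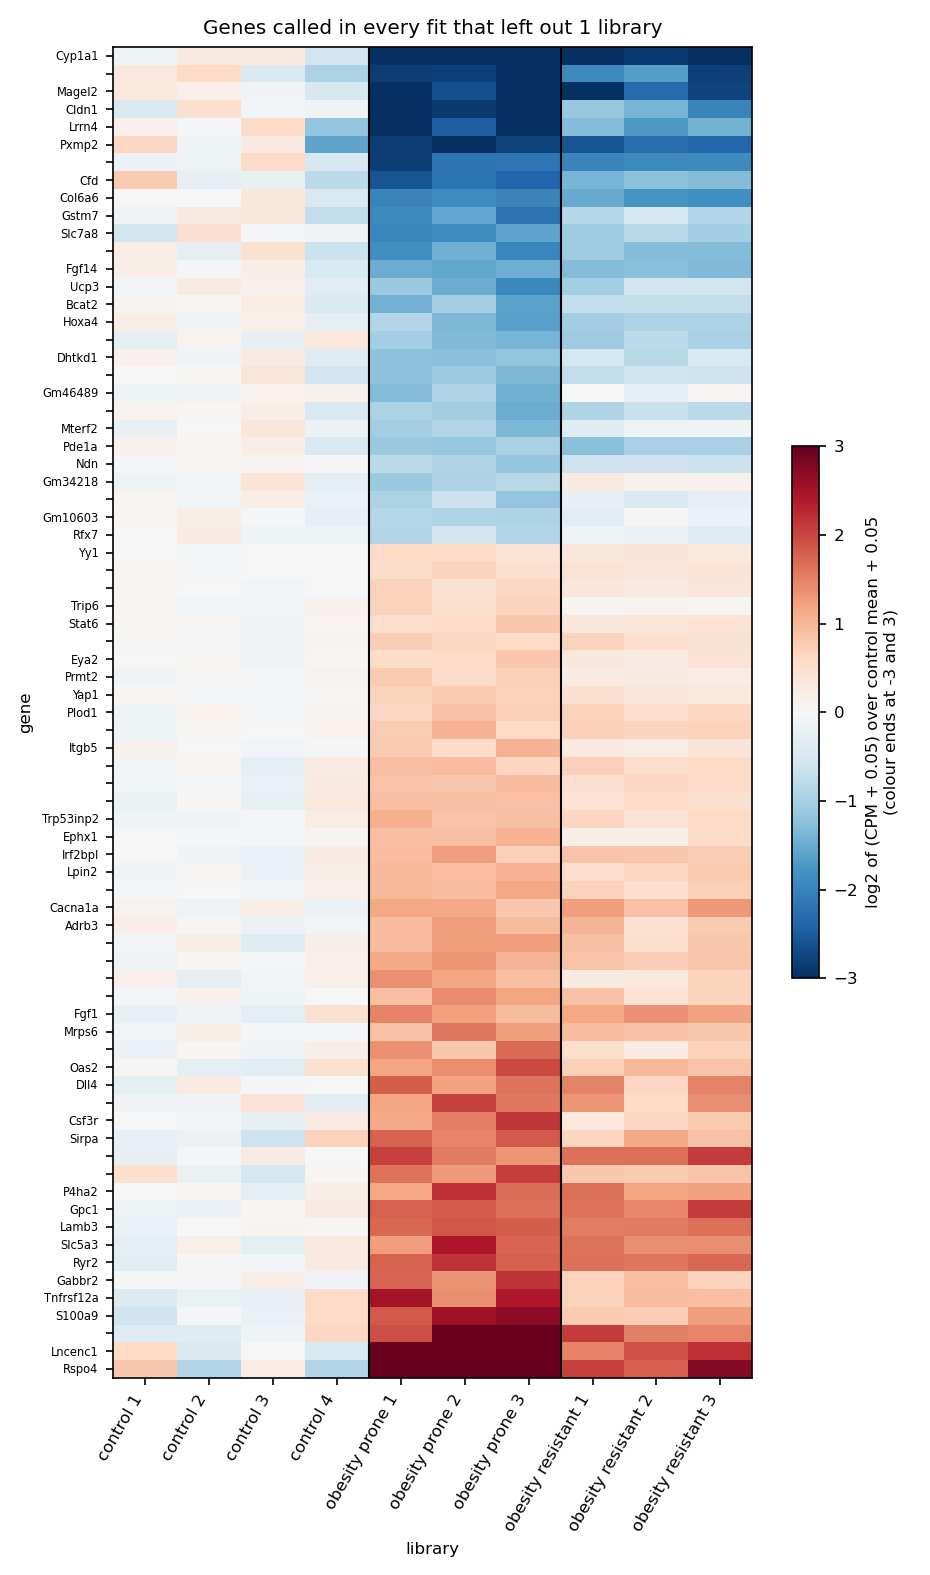
Level of each of the 75 genes that passed in edgeR, DESeq2 and every fit that left out 1 library (rows, ordered by fold change and labelled where the text names the gene) in the 10 libraries (columns, by group), as colour for the log2 ratio of CPM to the control mean, both with 0.05 added (red above, blue below, saturated at -3 and 3). The fitted fold changes run from -4.78 for Cyp1a1 to 5.11 for Rspo4, and the 47 genes that rose lie at 0.53 or above.

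Most genes of the beta-adrenergic pathway lay below 0, while the receptor gene Adrb3 rose. Of 21 receptor, cyclic AMP and kinase genes tested, 18 lay below 0 and 3 above, with a median of -0.28 (-0.12 without obesity-prone replicate 3). In the test 1 rose and 4 fell (23.8%, against 7.71% of all genes). Adrb3, the beta-3 receptor through which noradrenaline drives brown fat in mice (identifier 11556, chromosome 8, 27225776 to 27230845), read 229.6, 207, 179 and 189 CPM in the 4 control and 391, 481 and 391 CPM in the 3 obesity-prone libraries. The groups did not overlap, and the log2 fold change was 1.07 ± 0.15 (adjusted p = 0.011), between 0.96 and 1.14 with any library left out. Among the genes that fell were Prkaca, the catalytic subunit of protein kinase A (-0.67 ± 0.17, adjusted p = 0.044), Adcy9, an adenylyl cyclase (-0.84), and Rgs2, which shortens G protein signals (-1.70 ± 0.38, adjusted p = 0.032). Adrb3 kept the call in each fit that left out 1 library, the other 4 lost it in several of them, among these the fit without control replicate 3, and all 5 kept it without obesity-prone replicate 3 and control replicate 4 together. Gnas, the stimulatory G protein, was at -0.29 and did not pass (adjusted p = 0.44). Rgs7, another regulator of G protein signals and among the 10 most abundant genes that fell, read 845, 735, 966 and 749.9 CPM in control and 508, 612 and 335 CPM in obesity-prone libraries (-0.76 ± 0.19), and its groups did not overlap.

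Phosphodiesterases, which end cyclic nucleotide signals, changed in both directions: of 18 tested, 1 rose and 3 fell. Pde1a, which calcium and calmodulin switch on, fell in every obesity-prone library below the lowest control (49.2, 46.2, 50.99 and 32.6 CPM against 20.8, 20.4 and 22.9 CPM, log2 fold change -1.07 ± 0.15, adjusted p = 0.011). Pde7b and Pde8a, both specific for cyclic AMP, fell by 1.28 and 0.48 on the log2 scale, and Pde7a rose by 0.79. Of these 4, 1 kept the call without control replicate 2 or 3 or obesity-prone replicate 3. Ryr2, the ryanodine receptor that lets calcium out of intracellular stores (identifier 20191, chromosome 13, 11553099 to 12106945), read 21.8, 28.04, 25.5 and 33.4 CPM in control and 92.2, 122 and 94.6 CPM in obesity-prone libraries, a 3.78-fold difference (1.92 ± 0.15, adjusted p = 0.00087). The lowest obesity-prone library exceeded the highest control. Cacna1a, the pore of a voltage-gated calcium channel (1.05 ± 0.14), and Gabbr2, a subunit of the GABA-B receptor (2.14 ± 0.32), rose as well, and these 3 genes were among the 75. Fgf14, an intracellular partner of sodium channels, fell (-1.51 ± 0.15, adjusted p = 0.0029). It overlaps Itgbl1, which rose (1.61), at 1 end only (chromosome 14, 123974441 to 123978865). Without a stated strand setting, reads of the 2 genes within that stretch cannot be told apart. Of 22 genes of creatine and calcium cycling tested, Ryr2 and the calcium sensor Stim2 rose and none fell (9.09%, near the 7.71% of all genes). The median of that list was -0.19. The calcium pump gene Atp2a3 was at 0.85 (adjusted p = 0.053) and the release channel Itpr2 at -0.43. Of 28 potassium, chloride and sodium channel genes, Lrrc8a, Kcnj14, Scn3b and the stretch-gated Piezo1 rose and 1 gene fell. Kcnj14 rested on obesity-prone replicate 3 (0.954, 0.571 and 7.32 CPM against 0.28, 0.116, 0.171 and 0.107 CPM in control).

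**Figure D4:**
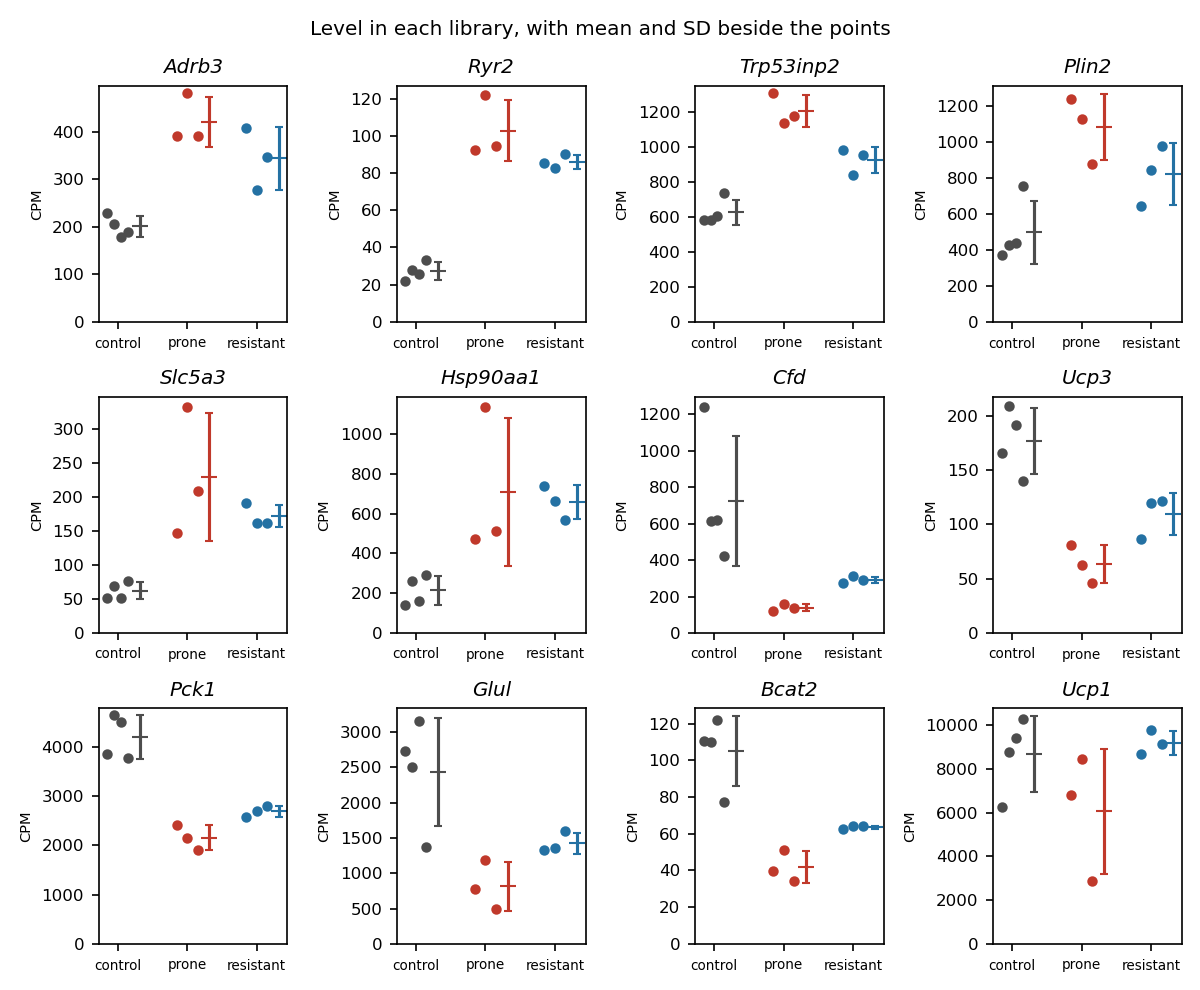
CPM (vertical axes) of 12 genes in each control, obesity-prone and obesity-resistant library (points, by group), with group means and SD. For Adrb3, Ryr2, Trp53inp2 and Slc5a3 every obesity-prone library lies above every control library, for Cfd, Ucp3, Pck1 and Bcat2 every one lies below, and for Ucp1 the groups overlap.

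The heat-making genes themselves gave little that passed the test. Of 18 thermogenic effector genes, 1 rose, Bmp8b, a secreted factor that makes brown fat more responsive to noradrenaline (0.28, 0.406, 0.114 and 0.348 CPM in control against 2.66, 3.64 and 0.842 CPM, log2 fold change 3.04 ± 0.50, adjusted p = 0.015). Its groups did not overlap, and its adjusted p reached 0.053 without control replicate 3. The median of the list was -0.21, but it turned to 0.12 when obesity-prone replicate 3 was left out and to 0.03 when control replicate 4 was left out as well. Ucp1 was at -0.52 ± 0.33 (adjusted p = 0.32), with obesity-prone replicate 3 below all controls and replicates 1 and 2 inside their range. Dio2, which activates thyroid hormone, was at -0.78 ± 0.46 (adjusted p = 0.29), the coactivator Ppargc1a at -0.42 ± 0.33 (0.42), and Cox8b, a brown fat form of a cytochrome oxidase subunit, at -0.45 ± 0.26 (0.28). Cidea, Cox7a1 and Elovl3 were at -0.26, -0.15 and 0.27, with overlapping groups. Acot2 and Cpn2, next by p in the list, were at 0.75 and -0.43 and did not pass (adjusted p = 0.2 and 0.21).

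A different member of the uncoupling protein family did fall. Ucp3, a mitochondrial carrier also found in muscle (identifier 22229, chromosome 7, 100472991 to 100486432), read 166, 209, 192 and 139.9 CPM in control and 80.9, 62.9 and 46.1 CPM in obesity-prone libraries. The highest obesity-prone value lay below the lowest control value, and the log2 fold change was -1.48 ± 0.21 (adjusted p = 0.011), between -1.70 and -1.29 with any library left out. Among the controls it was highest in replicates 2 and 3, which also had the highest skeletal muscle sums, and it passed with a skeletal muscle score in the model. Among 20 transcription regulators of brown fat, 0 rose and 2 fell (10%, against 7.71% of all genes). These were Nfia, which opens brown fat enhancers (-0.68 ± 0.15, adjusted p = 0.028), and Irf4, which acts with Ppargc1a in fasting and cold (-1.92 ± 0.42, adjusted p = 0.031). The nuclear receptor Esrrg (-0.85, adjusted p = 0.051), Ebf2 (-0.55, 0.075) and Prdm16 (-0.54, 0.12) did not pass, although no obesity-prone value of the 3 genes overlapped with control. Neither Nfia nor Irf4 kept the call without control replicate 1, 2 or 3. Gm34218, an lncRNA gene that overlaps Nfia, fell by 0.95 on the log2 scale (adjusted p = 0.017).

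Mitochondrial genes sat below control by small amounts, and few passed. All 37 complex I subunits tested were below 0, with a median of -0.48, and 1 fell, Ndufc2 (-0.71 ± 0.18, adjusted p = 0.047). Summed, complex I genes read 6231, 5989, 6721 and 5111 CPM in control and 5342, 5548 and 2760.1 CPM in obesity-prone libraries, so that replicate 3 was lowest and replicates 1 and 2 lay between control replicate 4 and the other controls. Without obesity-prone replicate 3 and control replicate 4 together, 18 complex I genes fell. In that fit 1200 named genes fell in all, against 616 in the main fit. The complex I median was then -0.29, and without obesity-prone replicate 3 alone it was -0.23. Complexes II to V (41 genes, median -0.41) and the pyruvate dehydrogenase and tricarboxylic acid cycle genes (27, median -0.41) had medians of -0.18 and -0.14 without obesity-prone replicate 3. Neither list had a gene that passed in edgeR, and Pdk2, Mpc1, Pdp2 and Pdk1 came nearest in the latter (adjusted p from 0.054 to 0.064). In the former the nearest were the ATP synthase genes Atp5g2 and Atp5j and the complex III gene Uqcrb (-0.51, -0.41 and -0.65). At an unadjusted p under 0.05 in edgeR these lists had 13 and 11 genes, against 5084 of all 16920 named genes tested. DESeq2 called 3 and 6 lower and, of the cycle genes, 1 higher, against 1376 lower and 1564 higher among all named genes. Of 45 mitochondrial ribosomal proteins listed, all lay below 0 (median -0.39, and -0.19 without obesity-prone replicate 3), and Mrps15 and Mrpl2 fell. Mrps6, a gene of the same family that the list leaves out, rose (1.27 ± 0.14, adjusted p = 0.0052) and overlaps Slc5a3. Of 35 carriers of the inner membrane, 1 rose and 5 fell, among them Slc25a11, the oxoglutarate carrier (-0.85 ± 0.20), Slc25a22, a glutamate carrier (-0.52 ± 0.12), and Slc25a16 (-0.96 ± 0.16), while Slc25a30 rose (0.56 ± 0.13). Of these 6, 0 kept the call without control replicate 3. Mterf2, a mitochondrial transcription factor among the 75, read 9.699, 11.2, 14.3 and 10.1 CPM in control and 5.596, 6.12 and 4.395 CPM in obesity-prone libraries (-1.08 ± 0.17, adjusted p = 0.014).

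Lipid genes were grouped by role. Of 24 genes of fatty acid synthesis and its supply of NADPH, 5 fell and 1 rose, with a median of -0.46 (-0.55 without obesity-prone replicate 3, -0.32 without control replicate 1). Those that fell were Acly, which makes cytosolic acetyl-CoA (-2.19 ± 0.46, adjusted p = 0.027), Acaca, which carries out the next step (-1.84 ± 0.47, 0.046), the lipogenic regulator Thrsp (-2.28 ± 0.49, 0.03), and the pentose phosphate enzymes Tkt and Taldo1. Acaca read 1915, 747, 2217 and 485 CPM in control and 346, 449.9 and 325 CPM in obesity-prone libraries: control replicates 1 and 3 were far above replicates 2 and 4, and the obesity-prone libraries were below all of them. Tkt read 1426, 1036, 1604 and 639 CPM in control and 504, 532 and 284 CPM in obesity-prone libraries, again with control replicate 4 nearest. Fasn, fatty acid synthase, showed the same split within control (8816, 2400.5, 9819 and 1309 CPM against 1192, 1665 and 1246 CPM) and did not pass (-2.03 ± 0.64, adjusted p = 0.077). The desaturase gene Scd3 rose from 0.0839, 0.174, 0.171 and 0.643 CPM to 5.96, 2.18 and 4.84 CPM (3.98 ± 0.71, adjusted p = 0.019), while its near relative Scd1 was at 0.25 ± 0.51 (0.78). Of the 6 changed genes, 0 kept the call without control replicate 1 or 3.

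In uptake, binding and activation of fatty acids, 3 of 21 genes fell and none rose: the fatty acid transporter Slc27a1 (-0.86 ± 0.19, adjusted p = 0.031), the apolipoprotein Apoe (-0.87 ± 0.21, 0.038) and Fabp4, the fatty acid binding protein of adipocytes. Fabp4 read 3177, 2855, 3366 and 2780.4 CPM in control and 2101, 2313 and 1938 CPM in obesity-prone libraries (-0.52 ± 0.14, 0.047), a small change without overlap, and the adjusted p reached 0.14 without control replicate 3. Of 23 genes of lipid droplets and lipases, 2 rose and 2 fell. Plin2, the coat protein of growing droplets, rose from 368, 427, 438 and 753 CPM to 1235, 1124 and 878 CPM (1.12 ± 0.25, adjusted p = 0.031), and control replicate 4 was the control nearest to the obesity-prone libraries; a pseudogene, Gm12551, overlaps its end. Hilpda, an inhibitor of the lipase ATGL, rose (0.98 ± 0.19, 0.024), and Dgat1, which makes triglyceride (-0.75 ± 0.12, 0.015), and the droplet protein Cideb (-1.79 ± 0.34, 0.022) fell. Of these 4, 0 kept the call without control replicate 3. Plin1 was level in the 2 groups (-0.06 ± 0.12), and the lipases Pnpla2 and Lipe were at -0.39 and -0.15 and did not pass. Lpin2, a phosphatidate phosphatase of triglyceride synthesis and among the 75, read 16.7, 18.3, 15.8 and 20.7 CPM in control and 35.8, 33.7 and 36.9 CPM in obesity-prone libraries (0.99 ± 0.11, adjusted p = 0.0041). Of 30 fatty acid oxidation genes, Acaa1a and Etfb fell and none rose, with a median of -0.21 (-0.01 without obesity-prone replicate 3). In cholesterol synthesis, the regulator Srebf2 (0.55 ± 0.09) and the enzymes Sqle (0.60 ± 0.11) and Lss (0.45 ± 0.11) rose, and the cholesterol exporter Abca1 (-0.93 ± 0.16) and the enzyme Ebp fell, of 25 tested. Of the 5, 0 kept the call without control replicate 3.

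Pck1, which in fat supplies glycerol for triglyceride, was among the 10 most abundant genes that fell (identifier 18534, chromosome 2, 173153073 to 173159274). It read 3857, 4644, 4499 and 3771 CPM in control and 2415, 2152 and 1902 CPM in obesity-prone libraries, 1.94-fold lower (-0.96 ± 0.15, adjusted p = 0.014), with no overlap, and the adjusted p reached 0.053 without control replicate 3. Cfd, the serine protease adipsin that adipocytes secrete and that starts the alternative complement pathway, was among the 75. It read 1239.9, 616, 623 and 421 CPM in control and 119, 159.8 and 139.6 CPM in obesity-prone libraries (-2.38 ± 0.32, adjusted p = 0.0092), and stayed between -2.57 and -1.99 with any library left out. Adipoq, the hormone adiponectin, was at -0.67 ± 0.24 (adjusted p = 0.1). Its obesity-prone libraries read 282, 311 and 486 CPM, and replicate 3 lay inside the control range. Lep, leptin, read 22.2, 6.31, 11.97 and 8.25 CPM in control and 61.2, 23.8 and 395 CPM in obesity-prone libraries; the groups did not overlap, but replicate 3 alone held most of the signal (3.71 ± 0.97, adjusted p = 0.049, and 0.23 without obesity-prone replicate 3). Trarg1, a regulator of the insulin-responsive glucose transporter, rose (1.28 ± 0.28, adjusted p = 0.029), and Deptor, an inhibitor of mTOR, rose from 314, 331, 339 and 406 CPM to 685, 518 and 484 CPM (0.70 ± 0.15).

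The breakdown of branched-chain amino acids, a fuel of brown fat, was lower at several steps. Of 21 genes tested, 5 fell and 1 rose, with a median of -0.42 (-0.26 without obesity-prone replicate 3). Bcat2, the mitochondrial aminotransferase that starts the pathway (identifier 12036, chromosome 7, 45568967 to 45589710), read 110.3, 110.1, 122 and 77.6 CPM in control and 39.5, 51.3 and 34.3 CPM in obesity-prone libraries, 2.52-fold lower (-1.33 ± 0.17, adjusted p = 0.0092). No value overlapped. Ppm1k, the phosphatase that switches on the branched-chain ketoacid dehydrogenase (-1.38 ± 0.25, 0.02), Mccc2, a subunit of a carboxylase of leucine breakdown (-0.75 ± 0.12, 0.015), and Aldh6a1 and Ivd (-0.83 and -0.82) fell too. Bcat1, the cytosolic aminotransferase, went the other way (1.01, 1.01, 0.656 and 1.93 CPM against 4.64, 2.86 and 18.4 CPM, 2.90 ± 0.60, 0.026). Of the 6, 1 kept the call without control replicate 3, and that gene, Bcat2, was the member among the 75. Dhtkd1, which acts in lysine breakdown, fell from 22.4, 18.97, 24.2 and 15.9 CPM to 8.72, 8.48 and 8.95 CPM (-1.22 ± 0.15, adjusted p = 0.0091). Slc7a8, an exchanger of large neutral amino acids, fell from 35.6, 73.2, 50.7 and 48.6 CPM to 13.4, 14.1 and 17.3 CPM (-1.80 ± 0.22, adjusted p = 0.0071). With Slc43a1 (-1.63 ± 0.41) it made 2 of 27 amino acid transporters that fell, and none rose (7.41%, near the 7.71% of all genes). Of the 27, 16 lay above 0. Slc38a2 and Slc38a1 were at 1.08 and 1.18 (adjusted p = 0.052 and 0.092). Glul, glutamine synthetase, read 2725, 2502, 3159 and 1366 CPM in control and 777, 1183 and 491 CPM in obesity-prone libraries (-1.58 ± 0.33, adjusted p = 0.028, and 0.084 without control replicate 3).

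Sugar genes were mixed. Of 27 genes of sugar transport and glycolysis, 2 rose and 3 fell, with a median of -0.38 (-0.22 without obesity-prone replicate 3). Pfkfb3 and Pfkfb1, which set the level of a sugar phosphate that activates glycolysis, fell (-0.79 ± 0.15 and -1.52 ± 0.26), and Pfkfb3 read 1365, 1692, 1502 and 1654 CPM in control against 797, 1053 and 852 CPM. Slc2a5, the fructose transporter, read 5.31, 0.521, 3.96 and 1.098 CPM in control and was listed at 0 in each library of the obesity-prone group. Hk1, a hexokinase (1.10 ± 0.22, adjusted p = 0.026), and Slc16a3, a lactate exporter, rose. Slc2a4, the insulin-responsive glucose transporter, was at -0.86 ± 0.27 (adjusted p = 0.073). Of the 5, 0 kept the call without control replicate 3. Both glycogen synthase genes fell, Gys2 (-0.98 ± 0.22) and Gys1 (-0.72 ± 0.18), and Ugp2, which makes the UDP-glucose they use, rose (0.53 ± 0.12).

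Of 9 genes of the aryl hydrocarbon receptor and its targets, 1 fell. This was Cyp1a1 (identifier 13076, chromosome 9, 57687928 to 57703824), with a log2 fold change of -4.78 ± 0.45 (adjusted p = 0.0025), while the receptor that induces it, Ahr, was at -0.26 ± 0.10 (adjusted p = 0.14), Cyp1b1 at 0.41 and the antioxidant regulator Nfe2l2 at -0.23, none of which passed. Of 24 genes of P450 families 2 to 4 and their partners, whose median was 0.03 (-0.11 without obesity-prone replicate 3), 4 fell, among them Cyp2e1 (-3.70 ± 0.72, adjusted p = 0.024), Cyp2j6 (-0.60 ± 0.13) and Fmo1, and 2 rose. Those were Fmo2 (1.07 ± 0.20) and Ephx1, microsomal epoxide hydrolase, which was among the 75 (17.97, 17.2, 17.2 and 18.9 CPM against 33.1, 33.5 and 36.5 CPM, 0.95 ± 0.10, adjusted p = 0.0043). Of 33 glutathione and antioxidant genes, 6 fell and 2 rose, and 0 of the 8 kept the call without control replicate 3. Gpx3, the secreted glutathione peroxidase, read 2068, 1782, 1470.1 and 1294 CPM in control and 776, 1008 and 489.5 CPM in obesity-prone libraries (-1.13 ± 0.26, adjusted p = 0.032). Mgst1 (-0.77 ± 0.12), Gstz1 (-1.47 ± 0.26) and Gpx8 (-1.50 ± 0.27) had the lowest p of the others that fell. Prdx6, a peroxiredoxin (0.61 ± 0.12), and Hmox1, heme oxygenase 1 (1.94 ± 0.50), rose. By symbol, 5 of 18 glutathione transferases tested fell and none rose, and Gstm7, which is among these 5 and among the 75, read 9.28, 12.1, 12.6 and 5.998 CPM against 2.605, 3.37 and 2.11 CPM (-1.89 ± 0.27). Glutathione transferases of a class are close copies, and reads could be split between them. Pxmp2, a channel of the peroxisomal membrane, fell from 19.6, 11.6, 15.4 and 4.18 CPM to 1.73, 1.44 and 1.82 CPM (-2.93 ± 0.44, adjusted p = 0.013).

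Thyroid hormone and nuclear receptor genes that changed all fell, 5 of 25, with a median of -0.27. Among them were Rxrg, a retinoid X receptor (-0.71 ± 0.14, 0.024), Nr3c2, the mineralocorticoid receptor (-0.86 ± 0.19, 0.03), Esr1, the estrogen receptor (-1.79 ± 0.39, 0.03), and Nr4a2 (-1.62 ± 0.38, 0.038), and 1 of the 5 kept the call without control replicate 3. The thyroid hormone receptors Thra and Thrb were at -0.36 and -0.44 and did not pass (adjusted p = 0.088 and 0.11).

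The list in which most members rose was that of the heat shock chaperones, which refold damaged protein under the control of the factor HSF1. Of 34 tested, 19 rose and none fell, with a median of 1.06 (0.65 without obesity-prone replicate 2, 1.26 without obesity-prone replicate 1). HSF1 binds repeats of a short element upstream of its targets, so the 250 bases before the RefSeq start (GRCm38.p6) were searched for its core, GAANNTTC, which reads the same on both strands. Other motifs were searched in the same way and are not described. Of 27 chaperone genes with a promoter in the table, 6 held a match (22.2%), and of 17 that rose, 4 did (23.5%), against 703 of 12975 named genes tested (5.42%) and 1833 of all 27025 promoters (6.78%). Among all genes that rose the share was 6.22%, and among those that fell 5.29%. The chaperone genes Hspe1 and Fkbp4, which did not pass, hold the core as well. The 4 promoters are shown because they belong to chaperones that rose and hold the core, which is in capitals. Hspa1a and Hspa1b lie on the minus strand at chr17:34972157-34972406 and chr17:34959239-34959488, and Hspb1 and Dnaja1 on the plus strand at chr5:135887669-135887918 and chr4:40722218-40722467.
Hspa1a: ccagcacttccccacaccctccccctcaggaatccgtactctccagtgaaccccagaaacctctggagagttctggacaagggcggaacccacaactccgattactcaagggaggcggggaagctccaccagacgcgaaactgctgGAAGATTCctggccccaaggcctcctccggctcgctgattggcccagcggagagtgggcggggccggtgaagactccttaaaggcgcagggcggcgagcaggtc
Hspa1b: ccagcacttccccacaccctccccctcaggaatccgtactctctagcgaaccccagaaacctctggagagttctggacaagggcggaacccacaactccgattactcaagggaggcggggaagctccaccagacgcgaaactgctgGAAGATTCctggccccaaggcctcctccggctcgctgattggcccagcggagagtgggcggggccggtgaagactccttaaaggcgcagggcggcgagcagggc
Hspb1: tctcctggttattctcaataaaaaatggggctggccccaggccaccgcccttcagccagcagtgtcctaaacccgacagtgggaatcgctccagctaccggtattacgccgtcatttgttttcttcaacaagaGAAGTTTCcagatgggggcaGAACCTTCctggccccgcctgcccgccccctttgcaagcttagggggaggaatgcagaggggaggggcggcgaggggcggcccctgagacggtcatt
Dnaja1: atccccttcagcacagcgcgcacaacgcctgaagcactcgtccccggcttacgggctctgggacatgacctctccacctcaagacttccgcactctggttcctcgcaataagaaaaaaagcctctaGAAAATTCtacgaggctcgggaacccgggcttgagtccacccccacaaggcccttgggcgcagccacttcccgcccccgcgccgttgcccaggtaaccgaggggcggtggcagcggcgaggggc
A match is a description of the letters and not a measured site. The promoters of Hspa1a and Hspa1b differ at 3 of 250 bases, and the genes themselves are near-identical copies between which reads cannot be placed with certainty.

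The inducible chaperones showed the following levels. Hspb1, a small heat shock protein, read 33.2, 59.1, 36.6 and 51.5 CPM in control and 104, 464 and 167 CPM in obesity-prone libraries (2.44 ± 0.44, adjusted p = 0.02). Hspa1a, inducible HSP70, read 2.66, 20.3, 2.68 and 13.2 CPM against 54.95, 471 and 101 CPM (4.43 ± 0.93, 0.029), and Hspa1b 3.52, 22.7, 4.16 and 20.6 CPM against 71.8, 793 and 145 CPM. Obesity-prone replicate 2 was the highest library for these 3 genes, and the groups did not overlap. Hsp90aa1, the stress-induced form of HSP90, read 139.7, 261, 162 and 293 CPM in control and 473, 1137 and 511 CPM in obesity-prone libraries (1.72 ± 0.34, 0.024), and Hsp90ab1, its constitutive relative, 475, 742, 496 and 686 CPM against 903, 1569.5 and 888 CPM (0.90 ± 0.23). Dnajb1, Dnaja1 and Hsph1, cochaperones of HSP70 and a nucleotide exchange factor, rose by 1.95, 1.46 and 2.04, and Hspb8 and Hspa2 by 1.58 and 1.25. Of the HSP90 partners, Stip1, Ahsa1, Ahsa2 and Chordc1 rose, as did Cacybp. Hspa8, the constitutive HSP70, and Hsf1 itself did not pass (0.76 ± 0.24, adjusted p = 0.074, and 0.19 ± 0.08, 0.14). Of the 19, 0 kept the call without control replicate 3 and 9 without obesity-prone replicate 3 and control replicate 4 together. In the obesity-resistant libraries Hsp90aa1 read 739.8, 664 and 571 CPM and Hspb1 244, 191 and 165 CPM, all within the range of the obesity-prone values.

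Of 28 chaperones and stress genes of the endoplasmic reticulum tested, 6 rose and none fell, with a median of 0.28: Sdf2l1 (1.80 ± 0.33, adjusted p = 0.02), Dnajc3 (0.42 ± 0.08), Hsp90b1 (0.52 ± 0.10), the secreted factor Manf (0.54 ± 0.12), Edem1 and Creld2. Of these, 0 kept the call without control replicate 1 or 3. In the integrated stress response, 3 of 24 rose, the serine synthesis enzyme Psat1 (1.89 ± 0.42), the mTOR inhibitor Ddit4 (0.95 ± 0.23) and Cebpg (0.47 ± 0.12). The median was 0.43 (0.28 without control replicate 3, 0.98 without control replicate 4). Summed CPM was 893, 1003, 897 and 1745 in control and 1609, 1845 and 1406 in obesity-prone libraries, so that control replicate 4 lay inside the obesity-prone range. Aldh1l2 was at 1.03 (adjusted p = 0.12). Of 30 immediate early genes, Jun (1.19 ± 0.23, 0.023), Jund (0.67 ± 0.14), Klf6 (0.72 ± 0.18), Ier3 and Egr2 rose and Nr4a2 fell (-1.62), and the median was 0.53 (0.42 without obesity-prone replicate 3 and 0.79 without control replicate 4). Such genes can respond within minutes to handling of a tissue, and the labels used here do not say how it was taken. Trp53inp2, a protein of autophagosome formation and among the 75, read 583, 584, 606 and 736 CPM in control and 1313, 1139 and 1178 CPM in obesity-prone libraries (identifier 68728, chromosome 2, 155381811 to 155389847, 0.95 ± 0.13, adjusted p = 0.0092). Of 34 lysosome and autophagy genes, 4 rose and none fell, Sqstm1 (1.18 ± 0.24), Hexa (0.47 ± 0.10), Map1lc3a (0.54 ± 0.14) and the acid lipase Lipa (0.46 ± 0.12), with a median of 0.28. Without obesity-prone replicate 3 and control replicate 4 together, 15 of the 34 rose. In that fit 1297 named genes rose in all, against 689 in the main fit.

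**Figure D5:**
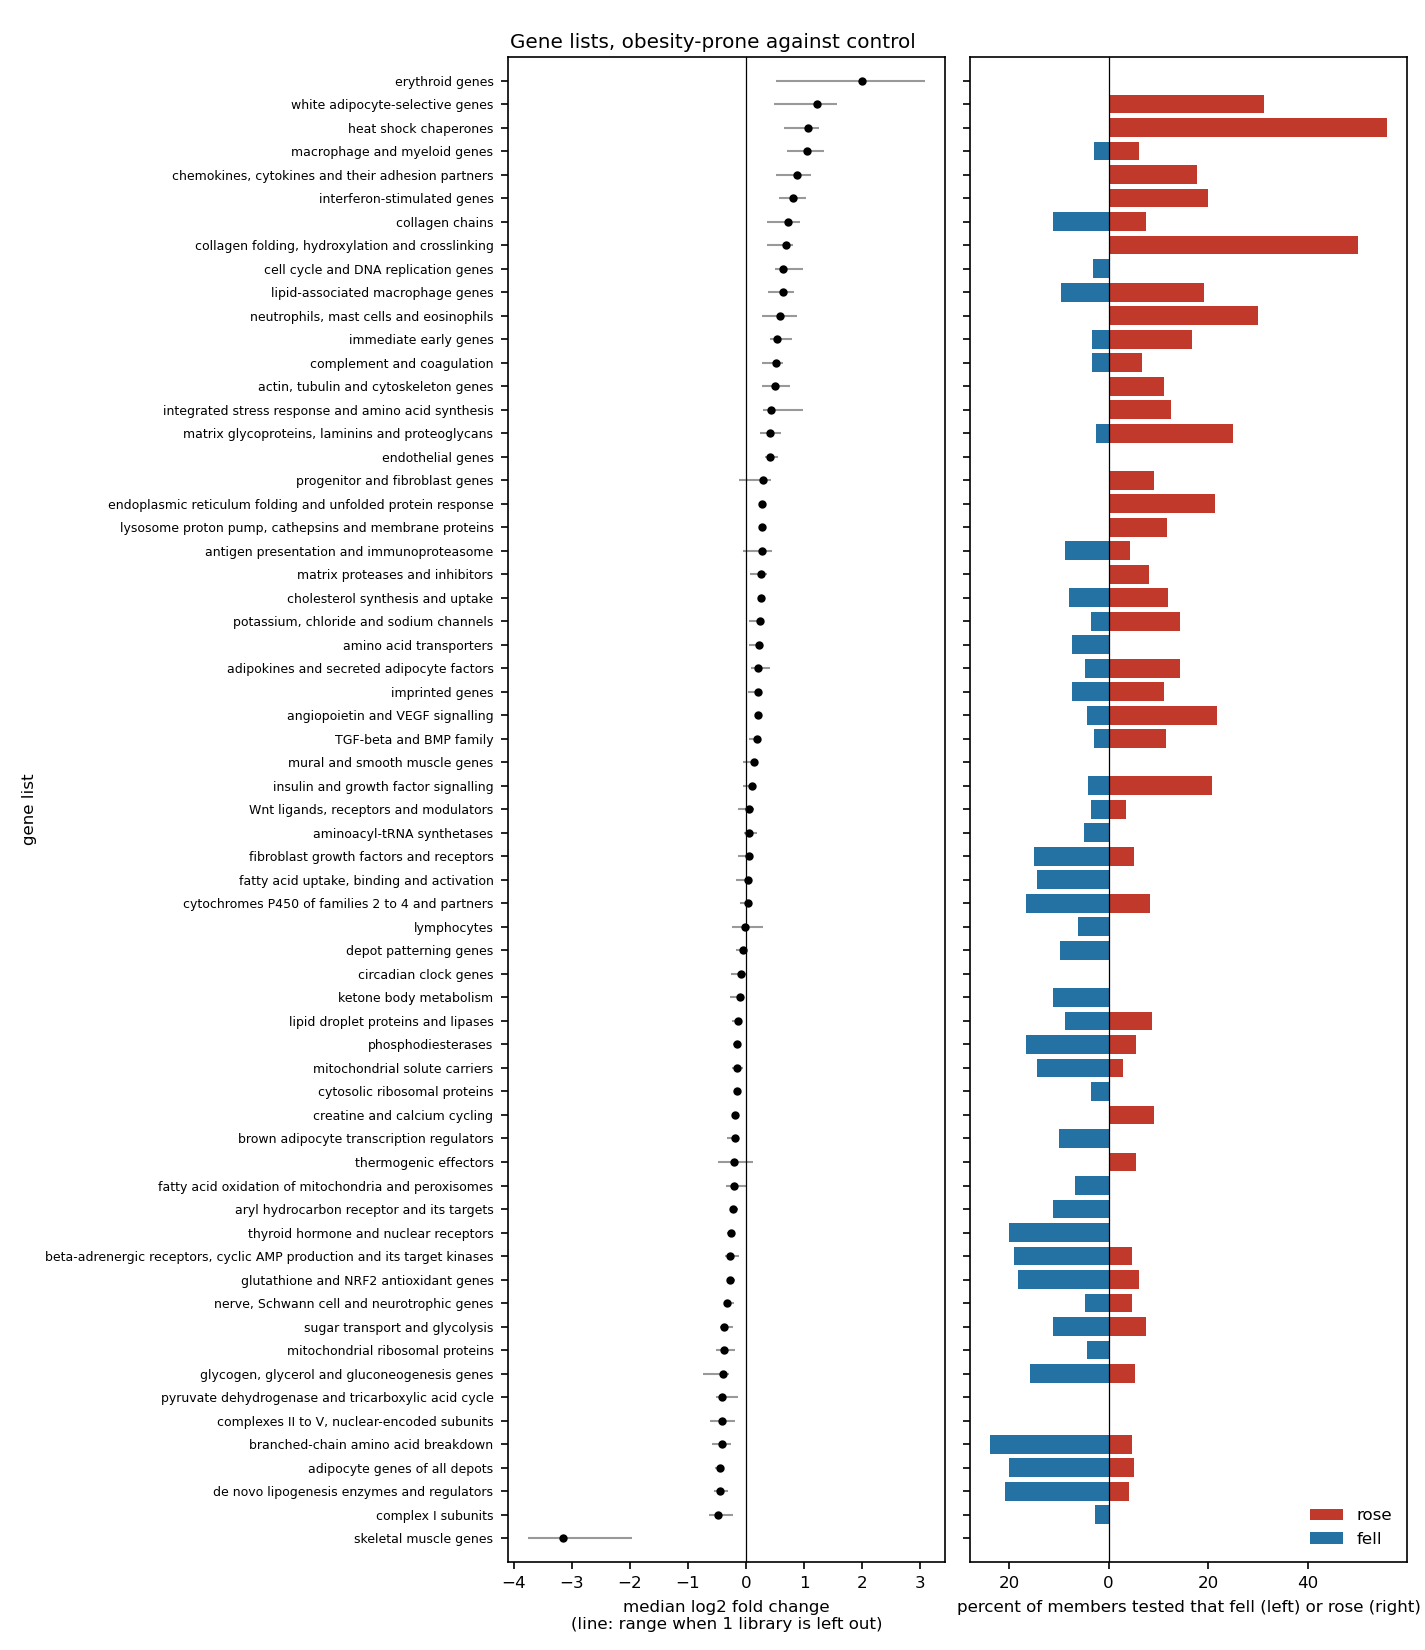
For each gene list with at least 9 members tested (vertical axis), the left panel gives the median log2 fold change (point) with its range when 1 library is left out (line), and the right panel the percent of members tested that rose (red, right of 0) or fell (blue, left of 0). Heat shock chaperones reach 19 of 34 and collagen folding genes 12 of 24 with none lower, and the thyroid hormone and nuclear receptor genes hold 5 that fell and none that rose.

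Of 24 genes of collagen folding, hydroxylation and crosslinking, 12 rose and none fell, with a median of 0.70 (0.36 without obesity-prone replicate 3, 0.80 without obesity-prone replicate 2). Plod1, a lysyl hydroxylase, read 67.4, 78.7, 70.1 and 77.5 CPM in control and 113, 136 and 121 CPM in obesity-prone libraries (0.75 ± 0.09, adjusted p = 0.0092). P4ha2 and P4ha1, prolyl hydroxylase subunits, rose by 1.75 ± 0.23 and 2.38 ± 0.38 (adjusted p = 0.0092 and 0.015). Serpinh1, the collagen chaperone (1.32 ± 0.21, 0.015), Plod2, Plod3, the crosslinking enzymes Lox, Loxl4 and Tgm2, and Sparc, a collagen-binding protein, also rose. Sparc read 628, 781, 639 and 893 CPM in control and 1222, 980.2 and 1975 CPM in obesity-prone libraries, with the lowest obesity-prone value above the highest control. Of the 12, 2 kept the call without control replicate 3; these were Plod1 and P4ha2, which stand among the 75. Of 27 collagen chains themselves, with a median of 0.73 (0.37 without obesity-prone replicate 3), Col12a1 (1.68 ± 0.38) and Col18a1 (1.61 ± 0.40) rose, and Col6a6 (-2.01 ± 0.21, adjusted p = 0.0039), Col23a1 (-1.48 ± 0.26) and Col4a3 fell. Col6a6, a chain of the beaded collagen VI, was listed at 3.83, 3.94, 4.93 and 2.84 CPM in control and 0.928, 1.01 and 0.948 CPM in obesity-prone libraries. In summed CPM, which the most abundant chains dominate, collagens read 2254, 2853, 1898 and 3678 in control and 4436, 3324 and 6383 in obesity-prone libraries, and replicates 1 and 3 lay above the control range.

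Other matrix genes rose in 10 of 40 cases and fell in 1, with a median of 0.42 (0.23 without obesity-prone replicate 3, 0.61 without obesity-prone replicate 2). Of 10 laminin chains tested, 4 rose, Lamb3, Lamc1 and Lamb2 among them, and Lamb1 fell. Lamc1 and Lamb1 were at 0.60 ± 0.13 and -0.48 ± 0.11. Gpc1, a heparan sulfate proteoglycan, rose from 11.01, 10.8, 12.7 and 14.4 CPM to 42.01, 43.4 and 38.4 CPM (1.76 ± 0.16, adjusted p = 0.0023). Bgn, the small proteoglycan biglycan (1.16 ± 0.21), Fbln5, Fbln2, Fmod and Thbs1 rose as well. Of the 11, 2 kept the call without control replicate 1, 2 or 3. Timp3, an inhibitor of matrix proteases (0.86 ± 0.12, adjusted p = 0.011), and the protease Adam8 (1.88 ± 0.43) rose among 25 genes of that kind (8%, near the 7.71% of all genes). Yap1, the coactivator of the Hippo pathway and among the 75, read 53.8, 50.1, 50.7 and 53.02 CPM in control and 82.6, 89.9 and 84.5 CPM in obesity-prone libraries (0.72 ± 0.07, adjusted p = 0.0029), Itgb5, an integrin chain, 44.1, 40.8, 38.2 and 38.99 CPM against 69.7, 60.04 and 83.5 CPM (0.81 ± 0.11), and the adhesion protein Trip6 rose too (0.61 ± 0.09). Among the 10 most abundant genes that rose and outside the 75, Ahnak, a large scaffold protein of the membrane, read 1366, 1434, 1249.9 and 1535 CPM in control and 2638, 1779 and 3778 CPM in obesity-prone libraries (0.97 ± 0.23), and Sptbn1, a spectrin, 1253, 1444, 1437 and 1594 CPM against 2364, 2022 and 2541 CPM (0.69 ± 0.15). Of 36 cytoskeleton genes, Anxa2, Msn, Tubb2a and S100a6 rose and none fell, with a median of 0.50 (0.28 without obesity-prone replicate 3). Of 24 genes of epithelium and mesothelium, 4 passed the filter on low counts and 3 fell: Cldn1, a tight junction protein (12.05, 23.2, 15.8 and 15.4 CPM against 1.88, 2.23 and 0.684 CPM), Lrrn4 (-2.98 ± 0.41) and the protease Prss8 (-3.36 ± 0.59). The marker Epcam, below 1 CPM in every library, was at -0.05 and did not pass (adjusted p = 0.92). Lrrn4 overlaps Crls1, which also fell (-0.89).

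Endothelial genes as a list had none of 26 that passed in edgeR (13 at an unadjusted p under 0.05, and 8 higher in DESeq2). Of all 16920 named genes tested, 5084 had an unadjusted p under 0.05 in edgeR, and DESeq2 called 1564 higher. Of the 26, 25 lay above 0, with a median of 0.42. Their summed CPM was 1610.2, 2243, 1814 and 2656 in control and 2589, 2421 and 2921 in obesity-prone libraries. In angiopoietin and VEGF signalling, 5 of 23 genes rose and 1 fell in edgeR (26.1%, against 7.71% of all genes). At an unadjusted p under 0.05 there were 9, to be read against the same 5084 of 16920. Of these 23, 17 lay above 0, with a median of 0.20. Angpt2, which loosens vessels, rose (1.43, 1.51, 1.03 and 1.87 CPM against 6.78, 3.15 and 6.74 CPM, 1.93 ± 0.30, adjusted p = 0.014), and Angpt1, its stabilising relative, fell (32.2, 22.5, 29.1 and 16.01 CPM against 9.67, 8.43 and 10.2 CPM, -1.40 ± 0.23, 0.015). Adm, adrenomedullin (1.52 ± 0.31), Pgf, the receptor Flt4 (0.57 ± 0.12) and Ramp2 also rose among 23 genes of these pathways, and 0 of the 6 kept the call without control replicate 3. Dll4, a Notch ligand of sprouting vessels and among the 75, read 7.41, 10.6, 8.81 and 8.997 CPM in control and 31.9, 20.6 and 27.9 CPM in obesity-prone libraries (1.58 ± 0.23, adjusted p = 0.011). Among fibroblast growth factors and their receptors (20 tested), Fgf1, which adipocytes make on a high-fat diet, rose (20.5, 22.3, 19.9 and 33.1 CPM against 67.1, 56.4 and 46.6 CPM, 1.24 ± 0.18, 0.012), and Klb, the coreceptor for FGF21 (-1.46 ± 0.25, 0.017), Fgf16 (-2.62 ± 0.58) and Fgf14 fell. Of 35 TGF-beta and BMP genes, Bmp8b, Id3 (0.84 ± 0.15), Smad7 (1.09 ± 0.25) and Inhbb rose and Id2 fell (-0.84 ± 0.19). Of 29 Wnt genes, Rspo4, a secreted enhancer of Wnt signals, rose (0.112, 0, 0.057 and 0 CPM against 1.96, 1.17 and 1.58 CPM) and Wnt11 fell (-1.01 ± 0.19). In insulin and growth factor signalling, Foxo3 (0.50 ± 0.11), Socs3 (1.43 ± 0.33), Igf2r (0.34 ± 0.08), Grb14 and Igfbp7 rose and Igfbp5 fell (-0.68 ± 0.15), of 24 tested. Tnfrsf12a, the receptor of the cytokine TWEAK, rose from 1.98, 2.32, 2.28 and 4.04 CPM to 15.3, 7.04 and 14.3 CPM (4.58-fold, with an SE of 0.30 on the log2 scale, adjusted p = 0.0092).

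Of 33 macrophage and myeloid genes 9.09% passed in edgeR, near the share of all genes: Lyz2 (1.29 ± 0.29, adjusted p = 0.033) and Tyrobp (1.45 ± 0.35) rose and 1 gene fell, with a median of 1.04 (0.71 without obesity-prone replicate 3, 1.34 without obesity-prone replicate 2). By other measures more of them moved: 30 of the 33 lay above 0. In edgeR 26 had an unadjusted p under 0.05, against 5084 of all 16920 named genes tested. DESeq2 called 17 of them higher and 1 lower, against 2940 named genes in all. The protease Ctss was at 1.65 (adjusted p = 0.055). The macrophage sums given above were inside the control range in obesity-prone replicate 2 and above it in replicates 1 and 3. Of 21 genes of lipid-associated macrophages, 4 rose and 2 fell; Gpnmb and Lgals3 rose, and Plin2, Lipa, Apoe and Fabp4, which adipocytes also express, are counted with other lists above. Of 34 chemokine, cytokine and adhesion genes, 6 rose and none fell, with a median of 0.88 (0.51 without obesity-prone replicate 3): the neutrophil attractant Cxcl1 (0.112, 0.29, 0.171 and 0.535 CPM against 1.37, 1.06 and 2.395 CPM, 2.52 ± 0.48, 0.022), the adhesion receptor Icam1 (1.28 ± 0.28), the macrophage growth factor Csf1 (0.90 ± 0.21), Tnf (2.48 ± 0.63), Ccl9 and Cx3cl1. Of these, 0 kept the call without control replicate 1, 2 or 3 or obesity-prone replicate 3.

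Interferon-stimulated genes rose in 8 of 40 cases and none fell, with a median of 0.81 (0.56 without obesity-prone replicate 3, 1.03 without control replicate 4). Oas2, an antiviral RNA sensor and among the 75, read 4.84, 3.79, 3.68 and 6.45 CPM in control and 10.7, 12.5 and 18.8 CPM in obesity-prone libraries (1.57 ± 0.23, adjusted p = 0.013). Irf1 (0.65 ± 0.11), Ifi203 (1.04 ± 0.19), Ifit2 (1.22 ± 0.26), Xaf1, Ifi44, Mx2 and Oas3 rose too, and 1 of the 8 kept the call without control replicate 3. Stat6, the factor through which IL-4 and IL-13 act, rose by a small and even amount (61.3, 60.9, 55.4 and 62.1 CPM against 86.4, 89.5 and 104 CPM, 0.64 ± 0.09, adjusted p = 0.0092); it overlaps Nab2, which also rose. Sirpa, the receptor for the signal CD47 on myeloid cells, rose from 25.04, 25.6, 18.9 and 46.6 CPM to 99.4, 80.1 and 104 CPM (1.70 ± 0.26). Of 10 neutrophil, mast cell and eosinophil genes, S100a9 (0.14, 0.232, 0.1995 and 0.375 CPM against 0.98, 1.63 and 1.79 CPM, 2.61 ± 0.35), the granulocyte growth factor receptor Csf3r (1.68 ± 0.24) and Cxcr2 (1.40 ± 0.27) rose, whereas S100a8, whose protein pairs with that of S100a9, was at -0.16 ± 0.12 (adjusted p = 0.41) in edgeR and at 0.55 in limma on log2 FPKM with a pseudocount of 0.5. In antigen presentation, Psme1 (-0.66 ± 0.17) and Psme2 (-0.71 ± 0.14) fell and Ubd rose (3.88 ± 0.84), of 23 tested. F7, a coagulation factor, rose (1.63 ± 0.37).

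Several of the 75 genes are regulators, transporters or imprinted genes. Slc5a3, the carrier that brings myo-inositol into cells under osmotic stress, read 50.9, 69.2, 51.4 and 76.3 CPM in control and 147, 333 and 208 CPM in obesity-prone libraries (1.89 ± 0.25, adjusted p = 0.0092). It overlaps Mrps6, which also rose (21.6, 25.9, 21.8 and 22.1 CPM against 41.9, 68.6 and 54.98 CPM), so their reads cannot be fully told apart. Ndn and Magel2, imprinted neighbours on chromosome 7 that encode MAGE proteins, both fell: Ndn from 23.6, 25.03, 25.97 and 23.5 CPM to 13.9, 13.2 and 11.002 CPM (-0.95 ± 0.10, adjusted p = 0.0029) and Magel2 from 2.24, 1.999, 1.65 and 1.26 CPM to 0.155, 0.245 and 0.079 CPM (-3.46 ± 0.46, 0.0092). Of 27 imprinted genes in all, Mest (2.99 ± 0.69), Igf2r and Peg10 rose. Hoxa4, a patterning gene, fell (-1.26 ± 0.18, adjusted p = 0.011), as did Hoxa2 (-1.12 ± 0.28) and Tbx5 (-0.97 ± 0.21) among 31 genes that differ between fat depots, and none rose. That is 9.68% of the list, near the 7.71% of all genes. Its median was -0.05, with 15 members above 0 and 16 below. Yy1, a transcription factor that in brown fat acts on mitochondrial genes, read 44.2, 42.03, 44.3 and 44.3 CPM in control and 66.02, 64.7 and 57.95 CPM in obesity-prone libraries, a rise of 0.53 ± 0.07 (adjusted p = 0.0092), the smallest change among the 47 genes that rose. Eya2, Irf2bpl and Prmt2, further regulators of transcription, rose by 0.66, 0.98 and 0.70, and Rfx7 fell by 0.75 on the log2 scale. Zbtb20, a repressor and among the 10 most abundant genes that fell, read 1160.0, 1169, 1357 and 974 CPM against 808, 809 and 848 CPM (-0.50 ± 0.13). The lncRNAs among the 75 included Lncenc1, which rose from 0.112, 0.029, 0.057 and 0.0268 CPM to 1.16, 0.816 and 1.11 CPM (4.12 ± 0.42, adjusted p = 0.0029), and Gm10603 and Gm46489, which fell (-0.89 ± 0.12 and -1.21 ± 0.18).

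Genes that white adipocytes express more than brown ones depended on obesity-prone replicate 3. Of 16 tested, 5 rose and none fell: Sncg (3.49 ± 0.65, adjusted p = 0.022), Psat1, Mest, Npr3, a natriuretic peptide clearance receptor (1.86 ± 0.46, 0.043), and Lep. Their summed CPM was 631, 507, 520.0 and 618 in control and 1214, 643 and 3181 in obesity-prone libraries, so that replicates 1 and 3 exceeded the control range and replicate 2 lay just above it. The median of 1.22 went to 0.47 without obesity-prone replicate 3, and 0 of the 5 kept the call without control replicate 1, 2 or 3. Sncg read 8.47, 11.04, 7.38 and 13.4 CPM in control and 60.03, 27.1 and 253 CPM in obesity-prone libraries. Obesity-prone replicate 3 also had the highest erythroid and the lowest complex I sum of the 7 libraries, and the part of that library in this list was not tested beyond leaving it out.

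Set directly against the obesity-resistant libraries of the high-fat diet, no named gene of the 16920 passed in edgeR (0 genes, lowest adjusted p = 0.23). At an unadjusted p under 0.05 there were 2797, and DESeq2 called 546. Leaving out obesity-prone replicate 2 gave 832 genes in edgeR. Both high-fat diet groups share the control, so their changes against it are not independent, and the values are given side by side. For 48 of the 75 genes the unadjusted p between obesity-prone and obesity-resistant libraries was under 0.05, beside 2797 of all 16920. The 75 were chosen by fits of these same obesity-prone libraries, which favours a high count. The 48 therefore do not measure a difference between the high-fat diet groups. Adrb3 read 344 ± 65.8 CPM (SD, n = 3) in obesity-resistant against 421 ± 52.2 CPM (n = 3) in obesity-prone and 201 ± 22.3 CPM (n = 4) in control libraries. Ryr2 read 86.05 ± 3.67, 103 ± 16.4 and 27.2 ± 4.88 CPM in the same order, so that the obesity-resistant libraries lay between the others. For Plin2 the order was the same (821 ± 170.0, 1079 ± 183 and 497 ± 174 CPM). Cfd was lower in both high-fat diet groups (293 ± 16.7 CPM in obesity-resistant and 139.6 ± 20.2 CPM in obesity-prone libraries, against 725 ± 356 CPM in control). Trarg1 read 237 ± 59.4 CPM in obesity-resistant, near control at 249.6 ± 76.8 CPM, and 607 ± 182 CPM in obesity-prone libraries. Its difference between the high-fat diet groups was 1.36 (unadjusted p = 0.0011, adjusted p = 0.23), which does not pass the test.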

How the data were processed

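Total RNA of brown adipose tissue was sequenced in 10 libraries (4 control, 3 obesity-prone and 3 obesity-resistant). Per the labels' protocols, Bowtie2 2.2.5 mapped the reads to the gene set of the sequencing company and RSEM 1.2.12 quantified them. HISAT2 2.0.4 and the build GRCm38.p6 are named per the submitters' processing notes. The table the authors deposited holds RSEM expected counts, which are not normalised, and FPKM values per library, which the authors scaled by gene length and depth. The 6 columns of group means were not used. Strand setting and annotation release are not given in the sources used here.

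Expected counts were rounded and fitted in edgeR 4.0.16 (R 4.3.3): TMM factors, filterByExpr with a minimum count of 10, and a robust quasi-likelihood fit of all 10 libraries with 1 coefficient per group and 7 residual degrees of freedom. Benjamini-Hochberg adjustment covered the 19676 genes tested, of which 16920 were named, and the threshold was 0.05. Library depth was similar, so precision is limited by the number of libraries and, for low genes, by few counts. The fit was tested on simulated data. DESeq2 1.42.0 and limma 3.58.1 on log2 FPKM were alternatives, besides other size factors and filters, a fit of the 2 groups only, a replicate block, a skeletal muscle score and leaving out libraries.

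The comparison and the gene lists (64 lists, 1645 distinct genes, 1627 found and 1523 tested) were chosen with earlier results of these data known, so they are described by counts and medians with no test. Genes named are those that passed in edgeR, DESeq2 and each fit that left out 1 library, the 10 most abundant in each direction without overlap between groups, the 4 members with the lowest p of each list described, with others where a role needs them, and Ucp1, Dio2, Ppargc1a, Cidea, Elovl3, Cox7a1, Cox8b, Adipoq, Lep, Fasn, Scd1, Plin1, Fabp4 and Adrb3. Some genes that this rule names are not reported here. The pseudogenes, overlapping genes and regulators named beside these were added after their values were seen. The names of 26 genes that stood as dates in the table were taken from RefSeq by identifier. Promoter sequences are those of RefSeq for GRCm38.p6.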

Additional observations from a re-analysis of the deposited data

Results flagged for a closer look

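Of 308 genes examined, 20 had a control value that stood apart from the other 3 controls by more than Dixon's critical value for 4 samples, and chance flags about 1 in 20 groups. Of these, 16 were in control replicate 4. There, Trp53inp2 was at 735.75 CPM (others 583.43 to 605.86), Tnfrsf12a at 4.04 (1.98 to 2.32), Ahr at 28.6 (23.1 to 23.8), Sqstm1 at 237 (122 to 131), Ier3 at 6.27 (3.49 to 3.79), Ubd at 0.348 (0.168 to 0.174) and Scd3 at 0.643 (0.0839 to 0.174). Hspb8 was at 65.1 CPM in that library (33.4 to 37.0), Slc38a2 at 145 (60.3 to 67.1), Ifi44 at 1.47 (0.428 to 0.559), Socs3 at 3.56 (2.48 to 2.61), Ifi203 at 27.8 (17.9 to 19.6) and Slc25a30 at 9.72 (7.52 to 7.88). Below the other controls in control replicate 4 were Ppm1k at 31.3 CPM (58.3 to 59.3), Pde8a at 96.0 (116 to 119) and Thra at 99.6 (126 to 131). In control replicate 2, Mrps6 was highest at 25.9 CPM (21.6 to 22.1), and Yy1 at 42.0 (44.2 to 44.3) and Lss at 16.4 (20.7 to 20.9) were lowest. In control replicate 1, Inhbb was highest at 1.82 CPM (0.855 to 0.884). Each of the 16 values in control replicate 4, whether the gene rose or not, lay on the side of the control range nearer to the obesity-prone values, except that of Ahr.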

How the results depend on the processing

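Against the 1305 named genes that changed (689 rose, 616 fell), DESeq2 called 2940 (1564 and 1376), the fit of the 2 groups only 65 (46 and 19), and the fit with a skeletal muscle score 550 (310 and 240). Limma on log2 FPKM called 957, 1003 and 903 at pseudocounts of 0.5, 0.1 and 1, of which 357, 379 and 329 fell. RLE factors, upper-quartile factors, no filter and the stricter filter gave 1257, 1346, 882 and 1495. Leaving out 1 library gave between 76 and 2879 genes (48 to 1593 that rose, 28 to 1286 that fell), and leaving out both obesity-prone replicate 3 and control replicate 4 gave 2497 (1297 and 1200). Of the 1305, 76 kept the call without control replicate 3 and 1278 without control replicate 4, and none turned direction in any alternative. Between obesity-prone and obesity-resistant libraries, 0 genes passed in edgeR, 546 in DESeq2, and between 0 and 832 with 1 library left out. With the replicate number as a block, 1509 genes changed (781 and 728), and 953 of the 1305 were among them. The numbers do not pair the samples: same-numbered libraries had correlations of deviations of -0.086, -0.13 and -0.15, and 0 of 3 obesity-prone libraries correlated best with their own number. Of 6766 values recomputed for single genes, 4964 kept direction and side of the threshold, 1695 lost the call, 90 gained it and 17 changed sign. Those that changed sign had not passed. With 1 library left out, Cidea lay between -0.47 and 0.060, Cox7a1 between -0.36 and 0.18, Elovl3 between -0.34 and 0.63, Plin1 between -0.097 and 0.0048, and Epcam between -0.22 and 0.050. Without both libraries Cox7a1 was at 0.095 and Scd1 at -0.19, and in limma Plin1 was at 0.017, Epcam at 0.0055, 0.022 and 0.0027, and S100a8 at 0.55, 0.65 and 0.47. Medians of the gene lists moved beyond the spread in 59 of 1408 cases. The cause of these differences was not tested.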

Other observations

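Named by symbol and not by the gene lists above, some families had more changes in 1 direction than in the other; the background is 7.71%. GTPase activators and exchange factors with Arhg symbols rose in 5 of 60 cases (8.33%, near the background) and fell in none, with a median log2 fold change of 0.24. TRIM ubiquitin ligases rose in 5 of 47 cases (10.6%) and fell in none. Semaphorins, guidance factors of axons and vessels, rose in 3 of 20 cases (15%). Proteasome subunits fell in 5 of 43 cases (11.6%) and deubiquitinases of the Usp family in 4 of 47 (8.51%, near the background), and neither had a member that rose. Zinc finger genes with Zfp symbols rose in 5 of 367 cases and fell in 13 (4.90% changed, below the background). Among aldehyde dehydrogenases 5 of 19 fell and 1 rose (31.6% changed). Solute carriers changed in both directions, with 11 that rose and 14 that fell of 259 (9.65%). These families were picked from the table of symbols after its values were known.

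The share of genes that changed grew with abundance, from 3.75% of the 2990 genes below 1 CPM to 9.83% of the 1587 genes at 100 CPM or more, where 65 rose and 91 fell. In the range from 10 to 100 CPM, 364 rose and 327 fell of 7110.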
